A study of Rattus norvegicus with 12 samples.

Results

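The genes described here are 9 transcription factors of the islet lineage, Pdx1, Mafa, Nkx6-1, Nkx2-2, Neurod1, Isl1, Pax6, Rfx6 and Rfx3. They were taken by symbol from the deposited table of 34034 gene symbols, and all 9 passed the filter on low counts (above 1 CPM, the counts of a gene scaled to a library of 1000000 counts, in at least 2 libraries) that left 14324 genes for testing. Polyadenylated RNA was sequenced from INS-1E, a rat insulinoma line used as a β-cell model, so that each value comes from 1 wild-type cell line and not from islets. There were 4 groups of 3 libraries each. Untreated cells had no cytokine. IL-1βlow cells received IL-1β at 10 pg/ml over 72 h, re-dosed at intervals of 24 h without a change of medium. CYT cells were challenged for 16 h with IL-1β at 100 pg/ml and IFN-γ at 5 ng/ml, and IL-1βlow + CYT cells had the preconditioning, a change of medium and then the same challenge. The 9 factors, each in the 4 groups, were examined for whether the challenge lowered them and whether preconditioned cells differed in that response.

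Islet endocrine cells are specified and kept in their state by a network of DNA-binding proteins that act on one another's genes and on those of hormones, granule proteins and glucose sensing. Pdx1, Mafa and Nkx6-1 are the factors most tied to mature β-cells, where Pdx1 and Mafa bind the insulin gene promoter and Nkx6-1 keeps other islet fates off. Neurod1, a basic helix-loop-helix protein, and the homeodomain proteins Nkx2-2, Isl1 and Pax6 act in the differentiation and upkeep of several endocrine cell types, while the winged-helix proteins Rfx6 and Rfx3 act in endocrine differentiation and, for Rfx3, in the genes of the primary cilium.

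All 9 factors fell with CYT, to between 20% of the untreated mean for Isl1 and 65.5% for Neurod1. In IL-1βlow + CYT cells the means stood at 46.6% (Nkx6-1) to 163% (Rfx6) of untreated, and 7 of the 9 were higher than in CYT cells. Preconditioning alone gave means of 87.4% to 139% of untreated, with no factor past the threshold. Here and below a difference was called at an adjusted p under 0.01 in edgeR's quasi-likelihood test, fitted to all 12 libraries at once and corrected by Benjamini-Hochberg over the 14324 genes. In bulk RNA, fewer cells with a transcript and less of it per cell cannot be told apart. The CYT libraries enter both CYT vs. untreated and IL-1βlow + CYT vs. CYT, and the untreated libraries several contrasts, so these values are given side by side and not as separate evidence.

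**Figure D1:**
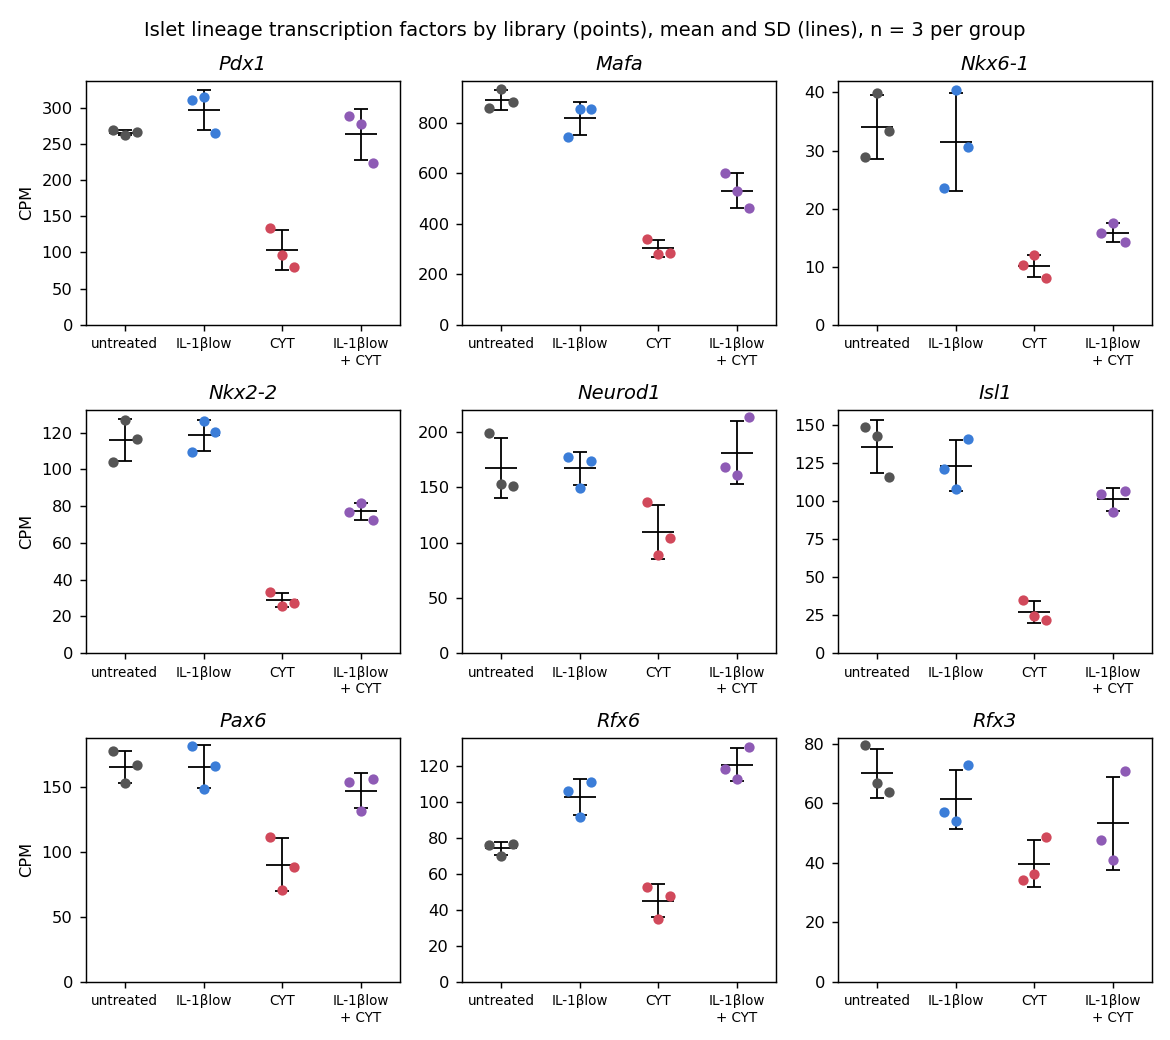
CPM (linear axes from 0) of the 9 factors in each of the 12 libraries, by group. Points are libraries, in replicate order from left to right, and lines give the mean and SD of 3. All 9 show their lowest group mean in CYT, from 10.2 CPM for Nkx6-1 to 302 CPM for Mafa.

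The libraries held 15812640 to 20246806 counts, and the 45S pre-ribosomal RNA gene Rn45s took 6.89% to 11.1% of them. Of 8 β-cell markers 7 were tested, with Ins1 at 6620 to 25800 CPM, while Ucn3, a marker of mature β-cells, reached at most 16 counts. Of the α-cell markers, the proglucagon gene Gcg was present, whereas Irx2 had no count and Ttr at most 1 in any library. Gcg ran from 185 to 367 CPM in untreated and from 24.2 to 63.1 CPM in CYT libraries, moving with the 9 factors, and its part in the results was not tested. Neurog3 and Ptprc had no count, and Sst, of δ-cells, at most 2. Nos2, the inducible nitric oxide synthase gene, was at 0.115 CPM or less in unchallenged libraries. It was at 412 to 688 CPM in CYT and at 33.0 to 57.8 CPM in IL-1βlow + CYT libraries. Other cytokine response genes differed less between these 2 groups. In CYT libraries Cxcl10 was at 65.3 to 105, Irf1 at 194 to 341 and Nfkbia at 151 to 191 CPM. In IL-1βlow + CYT libraries they were at 40.4 to 53.6, 121 to 132 and 106 to 120 CPM.

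Pdx1, the homeodomain activator of insulin transcription, fell to 38.8% of its untreated mean with CYT and had the smallest difference of the 9 between preconditioned challenged and untreated cells. It stood at 268.8, 261.7 and 266.4 CPM in the untreated libraries (mean 266 ± 3.64, SD, n = 3), and at 310.5, 315.0 and 265.0 CPM in IL-1βlow. It was at 133.1, 96.23 and 79.49 CPM in CYT and at 288.8, 277.2 and 223.5 CPM in IL-1βlow + CYT. Every CYT library lay below every other library, and the IL-1βlow + CYT range enclosed the untreated one. The log2 fold change was -1.37 ± 0.15 (SE) for CYT vs. untreated (adjusted p = 2.9e-06) and 1.35 ± 0.15 for IL-1βlow + CYT vs. CYT (adjusted p = 6.6e-06). Against untreated cells, IL-1βlow + CYT cells differed by -0.01, with a 95% interval of -0.33 to 0.31.

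The 250 bases before the annotated start of Pdx1 are shown because E-boxes, CANNTG, are the sites that helix-loop-helix proteins such as Neurod1 bind. They lie at chr12:12799157-12799406 on the minus strand of the assembly GRCr8 (RefSeq) and hold 3 E-boxes, set in capitals, of which the pair at -147 and -141 from the start adjoin. The sequence is printed 5′ to 3′.
Pdx1: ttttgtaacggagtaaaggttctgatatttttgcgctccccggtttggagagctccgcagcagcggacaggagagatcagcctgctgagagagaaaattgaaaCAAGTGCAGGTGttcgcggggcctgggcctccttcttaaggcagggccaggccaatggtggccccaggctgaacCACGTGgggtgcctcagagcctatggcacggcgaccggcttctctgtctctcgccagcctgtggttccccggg

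Mafa, the basic leucine zipper activator of insulin transcription, fell to 34% of its untreated mean with CYT and reached 59.7% in preconditioned challenged cells. Its untreated libraries held 857.1, 931.9 and 881.8 CPM (890 ± 38.1) and the IL-1βlow libraries 743.0, 854.3 and 855.3 CPM. The CYT libraries held 341.4, 280.7 and 284.9 CPM and the IL-1βlow + CYT libraries 601.9, 530.8 and 460.8 CPM. The 3 ranges of untreated, CYT and IL-1βlow + CYT libraries did not overlap, with the preconditioned challenged cells in between. The fall was -1.56 ± 0.11 on the log2 scale (adjusted p = 2.4e-08), IL-1βlow + CYT exceeded CYT by 0.81 ± 0.11 (adjusted p = 3.0e-05), and it remained 0.75 below untreated (log2 fold change -0.75 ± 0.11, adjusted p = 0.00013).

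Nkx6-1, a homeodomain repressor of non-β fates, had the fewest reads of the 9. It was at 28.87, 39.83 and 33.37 CPM in untreated libraries (34 ± 5.51) and at 23.48, 40.36 and 30.66 CPM in IL-1βlow. CYT libraries held 10.38, 11.95 and 8.13 CPM, and IL-1βlow + CYT libraries 15.87, 17.46 and 14.20 CPM. As for Mafa, the preconditioned challenged libraries lay between the CYT and the untreated ones with no overlap, and nearer to CYT. Its log2 fold change was -1.75 ± 0.20 for CYT vs. untreated (adjusted p = 3.2e-06) and -1.10 ± 0.19 for IL-1βlow + CYT vs. untreated (adjusted p = 0.00065). Against CYT, the preconditioned challenged cells differed by 0.65 ± 0.20, which missed the threshold (adjusted p = 0.015, 95% interval 0.22 to 1.07). With the replicate number as a block it was 0.65 with an adjusted p of 0.0011, and it also passed in DESeq2 (adjusted p = 0.0064). This difference passed too in edgeR's exact test (adjusted p = 0.0055) and with no filter on low counts (adjusted p = 0.00029). It missed the threshold with RLE scaling (adjusted p = 0.017) and in a fit of only the groups compared (adjusted p = 0.012). Leaving out any 1 CYT or IL-1βlow + CYT library also left it short, at 0.48 to 0.78 (adjusted p = 0.012 to 0.081).

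The other homeodomain factors and Neurod1 formed no single pattern. Nkx2-2, which acts in β-cell specification and in keeping α-cell genes off, was at 104.0, 127.1 and 116.5 CPM in untreated libraries (116 ± 11.6) and at 109.5, 126.2 and 120.2 CPM in IL-1βlow. It was at 33.25, 25.94 and 27.25 CPM in CYT and at 77.09, 81.76 and 72.51 CPM in IL-1βlow + CYT. These 3 ranges, of untreated, CYT and IL-1βlow + CYT, were again apart. The log2 fold change was -2.01 ± 0.11 with CYT (adjusted p = 1.9e-09) and 1.42 ± 0.11 for IL-1βlow + CYT vs. CYT (adjusted p = 2.3e-07). A difference of -0.59 ± 0.11 from untreated was left (adjusted p = 8.0e-04).

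Isl1, a LIM homeodomain factor of all islet endocrine types, had the largest fall and the largest difference between preconditioned challenged and challenged cells. Untreated libraries held 148.8, 142.6 and 115.6 CPM (136 ± 17.7) and IL-1βlow libraries 120.7, 107.8 and 140.8 CPM. CYT libraries held 35.15, 24.60 and 21.62 CPM and IL-1βlow + CYT libraries 104.3, 92.60 and 106.3 CPM. The CYT libraries lay far below all others, and the IL-1βlow + CYT libraries just under the untreated range. The fitted change was -2.32 ± 0.16 with CYT (adjusted p = 2.4e-08) and 1.90 ± 0.16 for IL-1βlow + CYT vs. CYT (adjusted p = 5.6e-07). Against untreated it was -0.43 ± 0.15, which did not pass (adjusted p = 0.061).

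Pax6, a paired-homeodomain factor upstream of several hormone genes, fell less. It was at 177.2, 152.8 and 166.4 CPM in untreated (165 ± 12.2), at 181.6, 148.5 and 165.9 CPM in IL-1βlow, at 111.3, 70.70 and 88.13 CPM in CYT and at 153.4, 131.4 and 155.9 CPM in IL-1βlow + CYT libraries. Only the CYT libraries stood apart from the other groups. On the log2 scale it changed by -0.88 ± 0.14 with CYT (adjusted p = 7.2e-05) and 0.71 ± 0.14 for IL-1βlow + CYT vs. CYT (adjusted p = 7.0e-04). Its 95% interval for IL-1βlow + CYT vs. untreated ran from -0.46 to 0.12.

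Neurod1, the helix-loop-helix activator of insulin and other endocrine genes, had the smallest fall. Untreated libraries held 198.6, 152.7 and 150.9 CPM (167 ± 27.1) and IL-1βlow libraries 177.4, 149.5 and 173.9 CPM. CYT libraries held 136.5, 88.89 and 103.7 CPM and IL-1βlow + CYT libraries 168.3, 161.2 and 213.7 CPM. The CYT libraries were below all others, the highest of them (136.5 CPM) by less than the SD of either group. The log2 fold change with CYT was -0.61 ± 0.16 (adjusted p = 0.0037), and it missed the threshold without the replicate 1 untreated library (-0.46, adjusted p = 0.030), without the replicate 2 CYT library (-0.48, adjusted p = 0.022) or without the replicate 3 CYT library (-0.54, adjusted p = 0.020). Relative to CYT, IL-1βlow + CYT cells differed by 0.72 ± 0.16 (adjusted p = 0.0016), and for IL-1βlow + CYT vs. untreated 0.11, with an interval of -0.22 to 0.45.

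The windows of Nkx2-2 and Neurod1, from the factors with the second largest and the smallest fall, are set beside that of Pdx1. The 250 bases before Nkx2-2 (chr3:155075623-155075872, minus strand, GRCr8) hold no E-box and 1 homeodomain core, TAAT, in capitals. Those before Neurod1 (chr3:84770455-84770704, minus strand) hold 1 E-box, at -51, in capitals.
Nkx2-2: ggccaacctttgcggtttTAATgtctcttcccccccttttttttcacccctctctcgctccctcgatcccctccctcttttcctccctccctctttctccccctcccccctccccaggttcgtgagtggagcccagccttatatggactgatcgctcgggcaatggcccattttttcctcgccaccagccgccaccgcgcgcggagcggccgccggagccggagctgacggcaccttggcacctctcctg
Neurod1: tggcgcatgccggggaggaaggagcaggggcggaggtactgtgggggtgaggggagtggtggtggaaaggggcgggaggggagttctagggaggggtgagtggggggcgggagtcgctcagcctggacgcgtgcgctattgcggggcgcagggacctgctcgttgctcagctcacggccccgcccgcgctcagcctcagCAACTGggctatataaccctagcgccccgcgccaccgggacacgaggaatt

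Of the 9, Rfx6 alone was called higher in preconditioned challenged than in untreated cells. It acts downstream of Neurog3 in endocrine differentiation and keeps insulin secretion genes on in adult β-cells. Untreated libraries held 76.08, 70.31 and 76.84 CPM (74.4 ± 3.57), IL-1βlow libraries 106.2, 91.95 and 111.3 CPM (103 ± 10.0), CYT libraries 52.76, 35.03 and 47.69 CPM (45.2 ± 9.13) and IL-1βlow + CYT libraries 118.7, 113.3 and 131.1 CPM (121 ± 9.09). No pair of the 4 groups overlapped, in the order CYT, untreated, IL-1βlow, IL-1βlow + CYT. The changes on the log2 scale were -0.72 ± 0.13 for CYT (adjusted p = 0.00022) and 0.70 ± 0.13 for IL-1βlow + CYT (adjusted p = 0.00082), both against untreated, and 1.42 ± 0.13 for IL-1βlow + CYT vs. CYT (adjusted p = 9.0e-07). The neighbours at the top of that order, IL-1βlow + CYT and IL-1βlow, differed by 0.23 ± 0.12, which did not pass (adjusted p = 0.29, 95% interval -0.04 to 0.50). In RefSeq's GRCr8 annotation Rfx6 overlaps 2 other genes, LOC134483923 and LOC134483940, the latter a pseudogene, so that reads could be shared with them.

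Rfx3, a regulator of ciliary genes and of β-cell maturation, had the widest relative spread of any factor in any group, a coefficient of variation of 29.5% in IL-1βlow + CYT. Untreated libraries held 79.52, 66.70 and 63.89 CPM (70.0 ± 8.33), IL-1βlow libraries 56.96, 54.10 and 72.67 CPM, CYT libraries 34.07, 36.14 and 48.71 CPM (39.6 ± 7.93) and IL-1βlow + CYT libraries 47.73, 40.98 and 70.85 CPM (53.2 ± 15.7). The CYT libraries lay below the untreated ones, while the IL-1βlow + CYT libraries overlapped both. The fall with CYT was -0.82 ± 0.19 (adjusted p = 0.0018), and it missed the threshold without the replicate 1 untreated library (-0.71, adjusted p = 0.014), the replicate 1 CYT library (-0.68, adjusted p = 0.016) or the replicate 2 CYT library (-0.76, adjusted p = 0.010). For IL-1βlow + CYT the differences were 0.42 ± 0.19 from CYT (adjusted p = 0.079) and -0.40 ± 0.19 from untreated (adjusted p = 0.15). Without the replicate 3 IL-1βlow + CYT library, the highest of its group, the difference from untreated was -0.66 (adjusted p = 0.0065) and that from CYT 0.16 (adjusted p = 0.43), and without the replicate 2 library of that group the difference from untreated was -0.24 (adjusted p = 0.48). Rfx3 overlaps 3 annotated genes, pseudogenes and a small nucleolar RNA.

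The Rfx3 window (chr1:235122423-235122672, minus strand, GRCr8) is shown for its copy of GTTGCC, letters found within the sites of RFX proteins, in capitals at -118.
Rfx3: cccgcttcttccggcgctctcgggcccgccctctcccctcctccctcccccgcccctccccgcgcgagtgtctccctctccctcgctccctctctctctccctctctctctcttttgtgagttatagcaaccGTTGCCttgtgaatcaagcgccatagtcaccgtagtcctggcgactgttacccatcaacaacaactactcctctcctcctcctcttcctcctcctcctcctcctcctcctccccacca

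RefSeq windows of 300 bases (250 before and 50 after the start) were matched for 7 of the 9 factors, all but Mafa and Rfx6, and searched on both strands. An E-box was in 4 of the 7 windows (Pdx1, Nkx6-1, Neurod1 and Isl1), against 72.1% of all 33469 promoters, and the homeodomain core TAAT in 4 (Nkx6-1, Nkx2-2, Isl1 and Rfx3), against 60.6%. The RFX motif GTTGCC was in 2 (Isl1 and Rfx3), against 12.2%. Letters of sites for the transcription factors of the cytokine response were also searched. The κB-type site GGGNNNNNCC was in 5 of 7 (47.3% of all promoters), and neither the GAS-type site TTCNNNGAA (8.87%) nor the ISRE-type site GAAANNGAAA (3.92%) was in any. The FOX cores TGTTTAC (3.78%) and TGTTTGC (4.88%) were in none. These matches describe letters in 1 short window and not bound sites.

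In the comparison of CYT with untreated cells, 9 of the 9 factors were lower, where 24.5% of all tested genes were lower and 25.2% higher. With a log2 fold change below -1 as well there were 5 (Isl1, Nkx2-2, Nkx6-1, Mafa and Pdx1), against 11.6% of all genes. The median over the 9 was -1.37, against -0.04 over all tested genes. In the order of their fall, Isl1, Nkx2-2, Nkx6-1, Mafa and Pdx1 formed the upper part, with intervals that overlapped from 1 neighbour to the next, and Pax6, Rfx3, Rfx6 and Neurod1 the lower, with intervals within -1.23 to -0.27. The intervals of Pdx1 (-1.70 to -1.04) and Pax6 (-1.17 to -0.58), on either side of that division, overlapped too.

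For IL-1βlow + CYT vs. CYT, 7 of the 9 were higher and none lower, with 17.1% of all tested genes higher and 19.2% lower. Of the 7, 4 exceeded a log2 fold change of 1 (Isl1, Rfx6, Nkx2-2 and Pdx1), against 6.54% of all genes. The median was 0.81, against 0.02 over all genes. With the replicate block, fitted to all 12 libraries, Nkx6-1 joined them, making 8, while the calls over all genes rose from 5199 to 6490. Deviations of same-numbered CYT and IL-1βlow + CYT libraries correlated at 0.116 to 0.475. The lowest, of replicate 1, was below that of CYT replicate 2 with IL-1βlow + CYT replicate 1 (0.192).

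**Figure D2:**
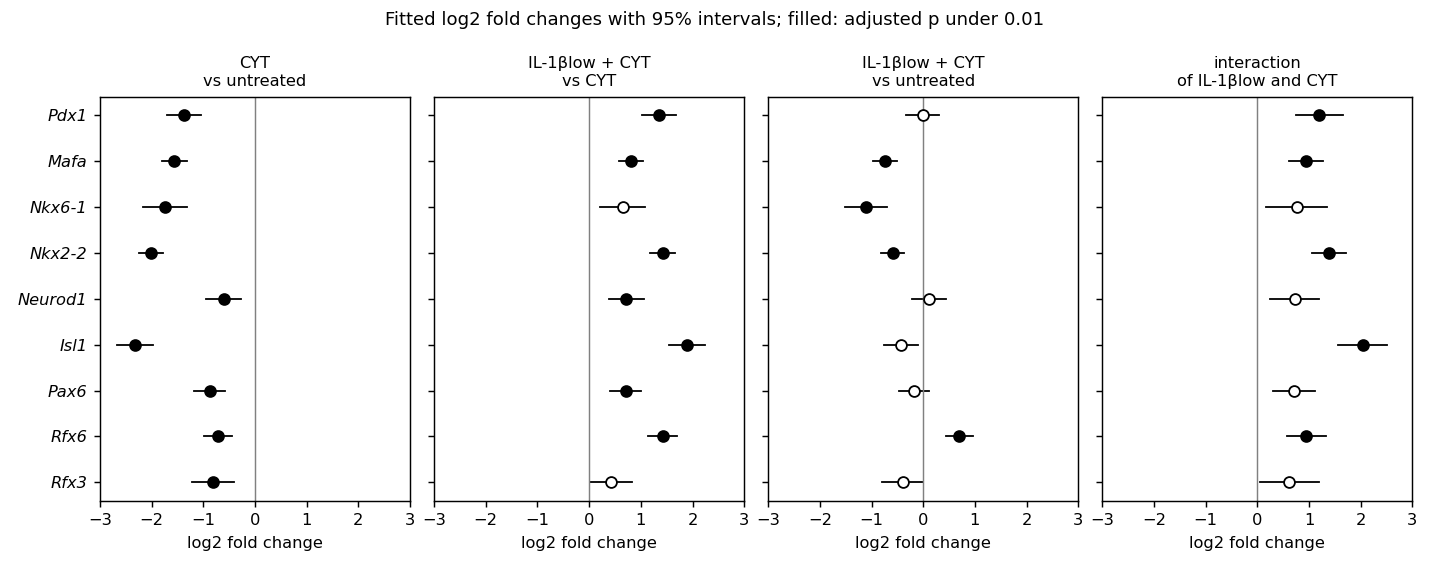
Fitted log2 fold changes (x axes) of the 9 factors in 4 contrasts, with 95% intervals from edgeR's quasi-likelihood fit; filled points had an adjusted p under 0.01. All 9 points lie below 0 for CYT vs. untreated and above 0 for IL-1βlow + CYT vs. CYT, and for IL-1βlow + CYT vs. untreated only Mafa, Nkx6-1 and Nkx2-2 are filled below 0 and only Rfx6 above.

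Against untreated cells, IL-1βlow + CYT cells had 3 factors lower (Nkx6-1, Mafa and Nkx2-2) and 1 higher (Rfx6), where 5.53% of all genes were lower and 8.24% higher. Nkx6-1 alone passed a log2 fold change of -1, against 2.14% of all genes. Pdx1, Neurod1, Pax6 and Rfx3 overlapped the untreated libraries, at 99.1%, 108%, 88.8% and 75.9% of the untreated mean. The median over the 9 was -0.40, against -0.01 over all genes. Within preconditioned cells, the challenge lowered the same 3 factors, Nkx6-1 (-0.99 ± 0.19, adjusted p = 0.0024), Mafa (-0.62 ± 0.11, adjusted p = 0.00099) and Nkx2-2 (-0.62 ± 0.11, adjusted p = 0.00078), with 2.63% of all genes lower. That of Nkx6-1 missed the threshold without the replicate 2 IL-1βlow library (-0.78, adjusted p = 0.011).

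**Figure D3:**
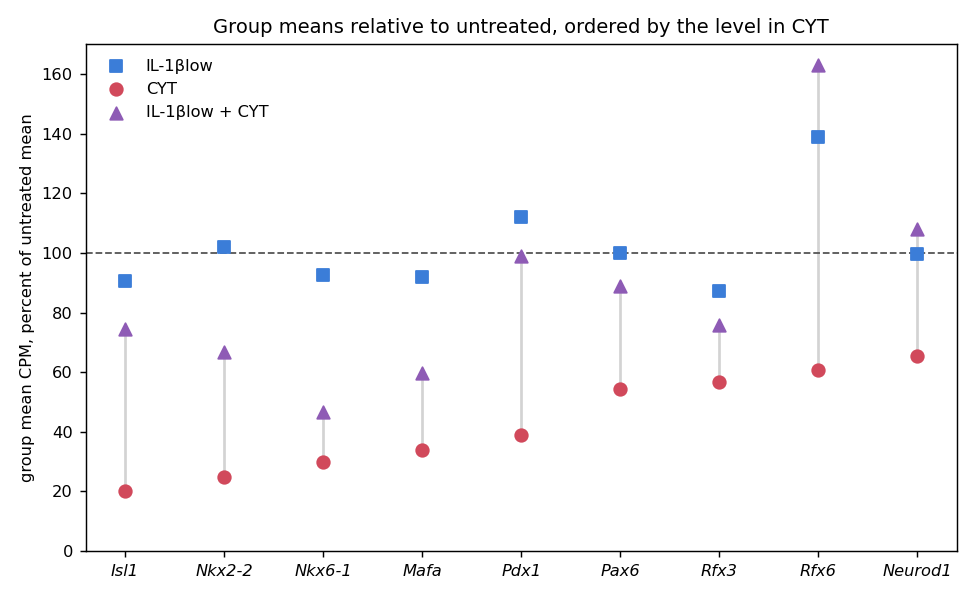
Group mean CPM of each factor as a percent of its untreated mean (dashed line at 100), ordered from left to right by the level in CYT, with a grey line joining CYT and IL-1βlow + CYT. CYT means run from 20% (Isl1) to 65.5% (Neurod1), and IL-1βlow + CYT means from 46.6% (Nkx6-1) to 163% (Rfx6).

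Low-dose IL-1β alone moved none of the 9 past the threshold in edgeR's quasi-likelihood test, in which 0.321% of all genes were higher and 0.182% lower. DESeq2 and edgeR's exact test also called none. At an unadjusted p under 0.05 there was 1, Rfx6, higher by 0.47 ± 0.12 on the log2 scale (adjusted p = 0.094, 95% interval 0.20 to 0.74) with no overlap between the groups. With the replicate block Rfx6 passed (0.47, adjusted p = 0.0060), though same-numbered untreated and IL-1βlow libraries did not all deviate together (correlations of -0.188 to 0.168). For Mafa the highest IL-1βlow library (855.3 CPM) lay just under the lowest untreated one (857.1 CPM). Its log2 fold change was -0.12 (adjusted p = 0.6, 95% interval -0.35 to 0.11). How many of all genes had groups with no overlap was not counted. For the other factors the intervals ran from -0.60 at the lowest (Rfx3) to 0.48 at the highest (Pdx1).

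The interaction, the log2 response to CYT in preconditioned cells less that in cells with no preconditioning, tested whether the 2 responses differed. It was positive and called for 5 of the 9, against 10.1% of all genes, and negative for none. The values were 2.04 ± 0.22 for Isl1, 1.39 ± 0.15 for Nkx2-2, 1.19 ± 0.21 for Pdx1, 0.95 ± 0.18 for Rfx6 and 0.94 ± 0.15 for Mafa, with adjusted p of 1.6e-05 to 0.001. The first 3 also exceeded a log2 value of 1, as 5.48% of all genes did. The others did not pass, with 0.76 ± 0.27 for Nkx6-1 (adjusted p = 0.041), 0.73 ± 0.22 for Neurod1 (0.019), 0.71 ± 0.19 for Pax6 (0.011) and 0.62 ± 0.27 for Rfx3 (0.085). The median over the 9 was 0.94, against 0.04 over all genes. With the replicate block 8 passed, all but Rfx3, while the calls over all genes rose from 3236 to 4560. Untreated libraries, which enter this contrast, did not all deviate with same-numbered ones (-0.188 to 0.181). Without the replicate 1 CYT library Neurod1 (0.89, adjusted p = 0.0044) and Pax6 (0.86, adjusted p = 0.0016) passed, and Pax6 also passed without the replicate 2 IL-1βlow + CYT library (0.78, adjusted p = 0.0086).

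Replicates of a group differed in ways that split the 9. Among the CYT libraries, replicate 1 was the highest for 7 factors, all but Nkx6-1 and Rfx3. It also held the least Nos2 (412 CPM against 605 and 688 CPM). Irf1 (194 against 282 and 341 CPM) and Nfkbia (151 against 160 and 191 CPM) were lowest there too. Cxcl10 was instead lowest in replicate 2 (65.3 CPM against 71.1 CPM in replicate 1 and 105 CPM in replicate 3). The part of CYT replicate 1 in the results was not tested beyond leaving it out. That left 8 of the 9 called lower than in untreated cells, all but Rfx3. Among the IL-1βlow + CYT libraries, replicate 3 was the lowest for Pdx1, Mafa, Nkx6-1 and Nkx2-2 and the highest for Neurod1, Isl1, Pax6, Rfx6 and Rfx3, so that the 9 did not shift together there.

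Other genes of the network were read from lists. Of 49 other islet transcription factors, 37 were tested, and with CYT 18 were lower and 3 higher, with a median of -0.50, where 24.5% of all tested genes were lower and 25.2% higher. In IL-1βlow + CYT relative to CYT, 10 were higher and 2 lower, against 17.1% and 19.2% of all genes. Of those with the highest mean CPM, Mlxipl, the glucose-responsive factor ChREBP, followed the 9. It was at 354 ± 31.2 CPM without treatment, 271 ± 33 CPM with CYT and 416 ± 28.3 CPM with both. Its log2 fold change was -0.39 with CYT (adjusted p = 0.0034) and 0.62 for IL-1βlow + CYT vs. CYT (adjusted p = 0.00013). Tshz1 fell with CYT by 1.31 on the log2 scale, from 252 ± 20.5 to 102 ± 16.1 CPM (adjusted p = 7.9e-08), and stood at 124 ± 1.78 CPM in IL-1βlow + CYT, which did not pass against CYT (adjusted p = 0.032). Sox4, an SRY-related factor of endocrine differentiation, was at 148 ± 32 CPM in untreated and 149 ± 14.4 CPM in CYT but at 325 ± 17.5 CPM in IL-1βlow + CYT libraries (adjusted p = 5.4e-06). St18 did not pass with CYT (-0.46, adjusted p = 0.019).

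Genes of proteins that act with the 9 were called about as often as genes at large. Of 35 partners and cofactors, such as LIM-binding proteins, TALE homeodomain proteins and chromatin remodellers, 32 were tested, with 7 lower and 7 higher in CYT and a median of -0.01, near the 24.5% lower and 25.2% higher of all genes. Ldb1, the partner of Isl1, was at 186 ± 9.60 CPM in untreated and 200 ± 8.71 CPM in CYT (log2 fold change 0.10, adjusted p = 0.39). Smarca4, Chd4 and Kmt2d also did not pass, with log2 fold changes of -0.22, -0.03 and 0.01.

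The other RFX genes are few. Of 8 further family members and RFX-complex genes 7 were tested, and Rfx1 was the 1 called with CYT, where 25.2% of all genes were higher and 24.5% lower. It was higher by 0.60 (29.4 ± 1.28 to 44.5 ± 4.53 CPM, adjusted p = 0.00027), with an interaction of -0.65 (adjusted p = 0.0047). Rfx2, Rfx5 and Rfxap did not pass in this comparison or in IL-1βlow + CYT vs. CYT. Of 26 ciliary genes of the class that RFX proteins are known to act on, 6 were lower and 6 higher with CYT, none by more than 1 on the log2 scale, shares near the 24.5% and 25.2% of all genes. Ift122 rose by 0.40 (adjusted p = 0.00071), and Bbs1, Ift52 and Arl3 did not pass.

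Genes known as β-cell targets of the 9 moved mostly with them. Of 36, 33 were tested, and with CYT 26 were lower and 3 higher, with a median of -0.96, where 24.5% of all tested genes were lower and 25.2% higher. Between IL-1βlow + CYT and CYT, 19 were higher and 2 lower, against 17.1% and 19.2% of all genes. In IL-1βlow + CYT, relative to untreated cells, 14 of the 33 were lower and 2 higher, against 5.53% and 8.24% of all. Ins1 fell with CYT by 1.74 on the log2 scale, from 24000 ± 2890 to 7200 ± 691 CPM (adjusted p = 1.0e-07), and was at 11800 ± 1590 CPM in IL-1βlow + CYT (0.72 above CYT, adjusted p = 0.00062). Ins2 was at 8100 ± 870 CPM in untreated libraries and already lower with preconditioning alone, at 4900 ± 107 CPM (log2 fold change -0.725, adjusted p = 0.0043). It was the 1 target called for IL-1βlow vs. untreated, where 0.182% of all genes were lower. The CYT libraries held 1290 ± 23.6 CPM of Ins2. Preconditioned challenged libraries held 1760 ± 259 CPM, which remained below untreated (log2 fold change -2.20, adjusted p = 3.7e-09). In untreated, CYT and IL-1βlow + CYT libraries the granin Chga was at 10400 ± 511, 3700 ± 352 and 5080 ± 571 CPM, and Chgb at 10300 ± 2280, 5230 ± 915 and 6780 ± 976 CPM.

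**Figure D4:**
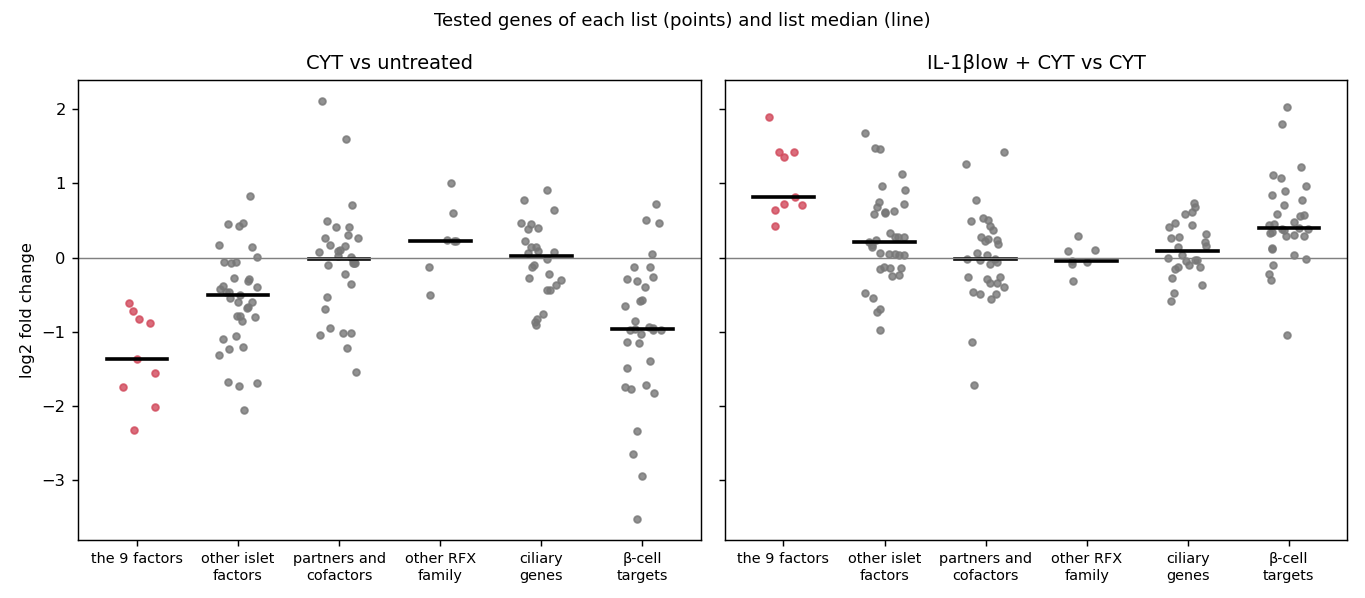
Log2 fold changes (y axis) of the tested genes of the 9 factors and of 5 further lists, for CYT vs. untreated (left) and IL-1βlow + CYT vs. CYT (right); points are genes, spread sideways for sight only, and lines are list medians. The medians of the 9 factors, -1.37 and 0.81, lie farthest from 0, with the β-cell targets next at -0.96 and 0.40.

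The genes with the pattern most like each factor were found by Pearson's r of log2 CPM over the 12 libraries among 9798 genes. As the groups lie apart, such an r mostly follows the group differences and is a description only. Closest to Pdx1 were Gstz1 (r = 0.997), Polr2l and Ttyh3, to Mafa Nptx1 (0.993), Hadh and Ntan1, and to Nkx2-2 Tmem215 (0.994), Rcan3 and Syt13. Isl1 was nearest to Ccna2, the cyclin A2 gene (0.994), Ywhaz and Hnrnpa2b1, and Nkx6-1 to the granule protein genes Resp18 (0.988) and Ptprn and to Gstm7. Pax6 was nearest to Dnajc9 (0.982), Col6a6 and Satb1, Rfx3 to Fbxl17 (0.974), Sp4 and Nkrf, Rfx6 to Lars2 (0.981) and Nfya, and Neurod1, with the lowest value, to Exoc2 (0.966), Hmgn3 and Zfp113.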

How the data were processed

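The authors deposited 1 table of raw read counts per gene symbol, made with FastQC, rfastp, Rsubread and featureCounts in R 4.3.3 on mRatBN7.2 per the labels and methods. The strand setting is not given in the sources used here. Each of the 12 columns was matched to a library by its label, and 0 columns were left unmatched. Replicates are labelled biological, and whether they came from separate cultures is not stated, so p-values measure the spread between these libraries. Replicates of a group differed by more than sampling noise (a chi-square of 6.67 to 25.3 for each degree of freedom).

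Counts were tested with edgeR 4.0.16 (TMM scaling, quasi-likelihood, 8 residual degrees of freedom, common biological coefficient of variation 0.123), CPM being TMM-scaled. The test was checked on simulated data. Alternatives were RLE scaling, other filters, DESeq2 1.42.0, edgeR's exact test, a replicate block, the fold minimum (log2 of 0.6 for IL-1βlow vs. untreated, otherwise 1), and each library left out. Deviations of same-numbered libraries correlated at 0.116 to 0.52 between IL-1βlow, CYT and IL-1βlow + CYT, and at -0.188 to 0.181 with untreated. That of replicate 1 between CYT and IL-1βlow + CYT (0.116) was below that of CYT replicate 2 with IL-1βlow + CYT replicate 1 (0.192).

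The text names the 9 factors, up to 4 genes per list by mean CPM, Ins1 and Ins2, and the 3 genes most like each factor (prior count 2, mean CPM above 10), of which 1 is not reported here. The members and lists were chosen with earlier results of these data known. Gene positions and promoters are from RefSeq GRCr8, another build than that of the counts. Gene lengths were not used here, so an order of genes by reads or CPM does not compare their transcript levels.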

Additional observations from a re-analysis of the deposited data

Results flagged for a closer look

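The response to CYT differed between preconditioned cells and cells with no preconditioning for 5 of the 9 factors, by edgeR's interaction test at an adjusted p under 0.01. On the log2 scale the difference was 2.04 for Isl1 (adjusted p = 1.6e-05), 1.39 for Nkx2-2 (adjusted p = 1.6e-05), 1.19 for Pdx1 (adjusted p = 7.0e-04), 0.95 for Rfx6 (adjusted p = 0.001) and 0.94 for Mafa (adjusted p = 0.00036), each positive. In preconditioned cells Mafa and Nkx2-2 were lower with CYT, and Pdx1, Isl1 and Rfx6 did not pass there, at -0.17, -0.28 and 0.23.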

How the results depend on the processing

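Of 792 alternative values over the 6 comparisons, 744 kept their direction and side of the threshold, 8 no longer passed, 21 newly passed and 19 changed sign, all of these last near 0 and none called in either fit. The number of the 9 factors called changed under some settings. The fold minimum left 5 for CYT vs. untreated, 4 for IL-1βlow + CYT vs. CYT, 1 for IL-1βlow + CYT vs. untreated, 0 for IL-1βlow + CYT vs. IL-1βlow and 3 for the interaction. With no filter on low counts, 1 (Rfx6) was called for IL-1βlow vs. untreated, 9 for IL-1βlow + CYT vs. CYT, 5 for IL-1βlow + CYT vs. untreated and 9 for the interaction. At an adjusted p under 0.05 IL-1βlow + CYT vs. CYT and the interaction each called 8. DESeq2 called 8 and 7 for these, the exact test 8 for the former, and a fit of only the groups compared 2 for IL-1βlow + CYT vs. IL-1βlow. The replicate block gave 1 (Rfx6) for IL-1βlow vs. untreated and 8 for the interaction, added Nkx6-1 in IL-1βlow + CYT vs. CYT and changed no other call of the 9. Over all genes, IL-1βlow vs. untreated called 72, and 258 with the replicate block, 219 with DESeq2, 221 with the exact test and 406 with no filter. For IL-1βlow + CYT vs. CYT the count over all genes was 5199, and 7267 at an adjusted p under 0.05. It was 5729 with DESeq2, 5909 with the exact test, 6490 with the replicate block and 5821 with no filter. For IL-1βlow + CYT vs. untreated it was 1972, and 2701 with no filter. The interaction called 3236 genes, and 4560 with the replicate block. Its counts over all genes under the other settings are not given here. The cause of these shifts was not tested.

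Changes of sign for IL-1βlow vs. untreated were, in log2 units, Neurod1 at 0.009 (RLE size factors and DESeq2) and 0.015 (no filter), and Pax6 at 0.012 (RLE and DESeq2) and 0.018 (no filter). For IL-1βlow + CYT vs. untreated Pdx1 was at 0.028 with no filter. Leaving out 1 library at a time gave, for IL-1βlow vs. untreated, -0.337 to 0.059 for Nkx6-1, -0.047 to 0.103 for Nkx2-2, -0.073 to 0.129 for Neurod1 and -0.077 to 0.066 for Pax6. For IL-1βlow + CYT vs. untreated it gave -0.098 to 0.091 for Pdx1 and -0.024 to 0.231 for Neurod1, and for IL-1βlow + CYT vs. IL-1βlow -0.020 to 0.194 for Neurod1. The falls of Neurod1 and Rfx3 with CYT are the ones that single libraries decide, and 3 libraries a group limit their precision.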
